A study of Mus musculus with 56 samples.

Results

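The clustered histone genes of the mouse were examined in 7 regions of the male reproductive tract at 2 ages. Members were all genes whose symbol starts with Hist1h, Hist2h, Hist3h or Hist4, without symbols that end in -ps, which gave 69 of the 53379 genes in the count table. Of these, 56 lie in the Hist1 cluster on chromosome 13, 10 in Hist2 on chromosome 3, 2 in Hist3 on chromosome 11 and 1 in Hist4 on chromosome 6 (GENCODE M21, GRCm38.p6). By product they are 5 H1, 19 H2A, 17 H2B, 12 H3 and 13 H4 genes, and 3 testis variants, Hist1h1t, Hist1h2aa and Hist1h2ba. The libraries came from C57BL/6 mice aged 3 months or 21 months, with no transgene or treatment named in the labels. There were 4 libraries of total RNA at each age from the testis, efferent ductules, initial segment, caput epididymis, corpus epididymis, cauda epididymis and vas deferens, 56 in all. By the study's methods every region was dissected from the paired organs of each mouse. The labels do not tie a replicate number to a mouse, so libraries were treated as independent and p-values measure the spread between libraries within groups. By those methods 4 mice of each age gave all 7 regions, so tests across regions did not take shared mice into account.

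Most clustered histone genes are replication-dependent: they lack introns, are transcribed mainly in S phase, and give mRNAs that end in a stem-loop instead of a poly(A) tail. H2A, H2B, H3 and H4 form the core of the nucleosome, around which DNA is wrapped, and H1 is the linker histone that binds where DNA enters and leaves it. In spermatocytes a set of variants, H1t (Hist1h1t), TH2A (Hist1h2aa) and TH2B (Hist1h2ba), is made and takes a large part of the place of its canonical partners, before transition proteins and protamines replace most histones in spermatids. Total RNA libraries hold transcripts with and without a poly(A) tail. In bulk tissue, fewer cells of a type and less RNA per cell cannot be told apart.

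Libraries held 11125279 to 20561967 counts, with a median of 16250453 at 3 months and 16402233.5 at 21 months. Levels are CPM, counts scaled to a common library size after TMM normalization. Marker sums separated the testis, where 9 spermatid genes summed to 9393 to 11110 CPM and 9 duct epithelium genes to 7.55 to 11.5 CPM. In some libraries other values stood apart: in caput replicate 2 of 3 months 49.7% of counts fell on the noncoding gene Gm42418, efferent ductule replicate 3 of 3 months held 174.7 CPM of spermatid markers against 37.8 to 42.0 CPM in the other three, and cauda replicate 3 of 3 months held 3576 CPM of macrophage markers against 409 to 444 CPM. Cauda replicate 2 of 21 months held 245 CPM of the members other than the 3 testis variants against 473 to 660.2 CPM. No pair of libraries of a group was close enough to be the same library. Histone genes resemble each other: 62 of the 69 members share at least 1 stretch of 100 bases with another annotated gene, 26 share at least 50% of such stretches, and 26 have exons that overlap another gene. How reads that match several genes, and strand, were treated in counting is not given in the sources used here, so the split of reads between near-identical members is uncertain. Of the members, 68 had at least 10 counts over all libraries, Hist2h3c1 had 0, and Hist1h2aj and Hist1h2al are annotated as pseudogenes.

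The regions before the start sites of 5 members are shown, in 4 sequences, because they belong to members that set the testis and the ducts apart. Hist1h2ba (chr13:23933773-23934156, minus strand) and Hist1h2aa (chr13:23934462-23934851, plus strand) are transcribed away from each other, and the first sequence is the plus strand of the 280 bases between their RefSeq start sites (chr13:23934157-23934436), of which that of Hist1h2aa lies before the GENCODE start just given. The others are the 250 bases before the start sites of Hist1h1t (chr13:23695561-23695810), of Hist1h1a (chr13:23763418-23763667), the leading H1 gene of the testis besides H1t, and of Hist1h1c (chr13:23738557-23738806), the leading H1 gene of the ducts, all on the plus strand. Sequences come from the RefSeq promoter table of GRCm38.p6. Capitals mark 5 motifs searched on both strands: the TATA box TATAAA, the CCAAT box CCAAT, the octamer motif on 7 letters TGCAAAT, the cAMP response element core TGACGT, and AAACACA, known as an H1 box. No motif contains another.
Between Hist1h2ba and Hist1h2aa: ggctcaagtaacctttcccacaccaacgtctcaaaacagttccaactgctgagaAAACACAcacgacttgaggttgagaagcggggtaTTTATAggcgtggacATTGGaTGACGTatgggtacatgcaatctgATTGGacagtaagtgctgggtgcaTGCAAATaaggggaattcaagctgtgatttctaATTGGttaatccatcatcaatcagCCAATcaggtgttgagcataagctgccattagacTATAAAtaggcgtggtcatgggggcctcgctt
Before Hist1h1t: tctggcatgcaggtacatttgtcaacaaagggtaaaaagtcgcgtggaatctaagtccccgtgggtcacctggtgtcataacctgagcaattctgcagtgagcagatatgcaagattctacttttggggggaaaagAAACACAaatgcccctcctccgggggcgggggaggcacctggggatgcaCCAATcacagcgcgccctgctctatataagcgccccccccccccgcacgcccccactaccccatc
Before Hist1h1a: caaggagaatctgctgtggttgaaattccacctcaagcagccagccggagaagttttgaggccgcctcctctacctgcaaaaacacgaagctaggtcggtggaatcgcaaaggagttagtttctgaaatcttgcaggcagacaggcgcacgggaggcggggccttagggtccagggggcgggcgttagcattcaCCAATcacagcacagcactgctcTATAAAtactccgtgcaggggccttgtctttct
Before Hist1h1c: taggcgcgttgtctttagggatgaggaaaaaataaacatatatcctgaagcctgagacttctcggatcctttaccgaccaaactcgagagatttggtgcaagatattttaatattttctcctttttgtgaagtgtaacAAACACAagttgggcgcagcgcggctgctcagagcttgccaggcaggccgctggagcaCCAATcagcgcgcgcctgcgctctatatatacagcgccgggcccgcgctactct
The shared stretch of Hist1h2ba and Hist1h2aa held TATAAA 2 times and CCAAT 4 times. A window of 300 bases, 250 before and 50 after the start, was on file for 62 of the 69 members and for 32851 start sites in all. CCAAT was in 53 of the 62 members' windows and in 37.4% of all windows, and within the members it was in every H1, H2A, H2B and H3 window and in 3 of the 12 H4 windows. TATAAA was in 35 of 62 against 13.6% of all windows, TGACGT in 17 of 62 against 7.51% and TGCAAAT in 13 of 62 against 4.02%. AAACACA was in 9 of 62 against 7.18% of all windows: in the windows of all 3 testis variants, in 4 of 5 H1 windows (not that of Hist1h1a), and in 1 window each of H2A and H2B. These matches are descriptions of letters and were not tested for binding.

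The H4 genes show how far the members can be told apart by sequence, since they encode the same small protein with different codons. Shown are the first 60 coding bases of Hist1h4c (chr13:23698390-23698449, minus strand) and Hist1h4k (chr13:21750446-21750505, minus strand), both called higher in the testis, and of Hist1h4d (chr13:23581602-23581661, plus strand) and Hist1h4h (chr13:23531115-23531174, plus strand), which led in the ducts. They were read from the GENCODE M21 transcripts (GRCm38), and capitals mark bases that differ from Hist1h4c.
Hist1h4c: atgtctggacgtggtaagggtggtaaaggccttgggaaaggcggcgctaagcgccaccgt
Hist1h4k: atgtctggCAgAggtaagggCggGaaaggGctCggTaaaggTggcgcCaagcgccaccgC
Hist1h4d: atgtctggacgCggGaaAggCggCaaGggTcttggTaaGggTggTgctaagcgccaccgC
Hist1h4h: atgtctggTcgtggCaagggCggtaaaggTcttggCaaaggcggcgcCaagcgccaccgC
Over the whole coding length of 312 bases, Hist1h4k was 93.9%, Hist1h4d 92.6% and Hist1h4h 95.5% identical to Hist1h4c. Across the 78 pairs of the 13 H4 genes identity ran from 85.3% (Hist2h4 and Hist4h4) to 100% (Hist1h4m and Hist1h4n), so reads of that last pair cannot be assigned by their coding bases. Hist1h2ba was 80.6% to 87.9% identical to 15 other H2B genes, counted back from the stop codon without gaps, and Hist1h1t and Hist1h2aa shared no stretch of 100 bases with another gene. Hist1h2ba shared 27.4% of its stretches, with H2B genes that include Hist1h2bj and Hist1h2bc, so its low levels in the ducts are uncertain.

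The testis variants made up most of the testis pool and a trace of every duct pool. They were 60.5% ± 0.75 (SD, n = 4) of the summed CPM of all members in the testis at 3 months and 61.7% ± 0.45 (SD, n = 4) at 21 months. In no duct library of either age did they exceed 3.16%. At 3 months Hist1h2ba stood at 454, 530, 673 and 407 CPM in the 4 testis libraries. Its mean was 516 ± 116 CPM (SD, n = 4). Hist1h1t stood at 317, 363, 357 and 311 CPM, with a mean of 337 ± 26.9 CPM (SD, n = 4). Hist1h2aa stood at 71.9, 80.9, 86.5 and 65.3 CPM, with a mean of 76.1 ± 9.40 CPM (SD, n = 4). Every testis library was above every duct library for all 3 genes. Per kb of exon the order in the testis was Hist1h2ba at 1344 ± 303, Hist1h1t at 370 ± 29.4 and Hist1h2aa at 195 ± 24.1 CPM per kb (SD, n = 4), followed by Hist1h1a at 133 ± 20.1 CPM per kb. Hist1h2aa overlaps an antisense gene, Gm44344, over 33.1% of its exon, which limits its level where strand was not used in counting.

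In the ducts at 3 months Hist1h1t was highest in the initial segment, at 1.0, 3.23, 1.02 and 1.61 CPM, and lowest in the vas deferens, at 0 to 0.297 CPM. Hist1h2ba stood at 2.64, 3.41, 2.29 and 1.16 CPM in the initial segment. In the efferent ductules it stood at 0.690, 0.105, 8.70 and 0.304 CPM, so the mean of that region rested on replicate 3, the one with more spermatid markers. In the vas deferens at 3 months Hist1h2ba had 2 counts over 4 libraries and Hist1h2aa had none, which allows up to 3 counts in a library. On the log2 scale the testis exceeded the mean of the 6 ducts by 9.73 ± 0.30 (SE) for Hist1h2ba, 9.12 ± 0.17 for Hist1h1t and 9.96 ± 0.28 for Hist1h2aa at 3 months, with adjusted p-values of 5.67e-23, 5.45e-28 and 3.06e-22 (edgeR quasi-likelihood F-test, Benjamini-Hochberg over all genes). At 21 months the differences were 10.42 ± 0.28, 9.36 ± 0.20 and 10.23 ± 0.21 (SE). The duct side rested on 443, 296 and 56 counts over 24 libraries at 3 months.

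**Figure D1:**
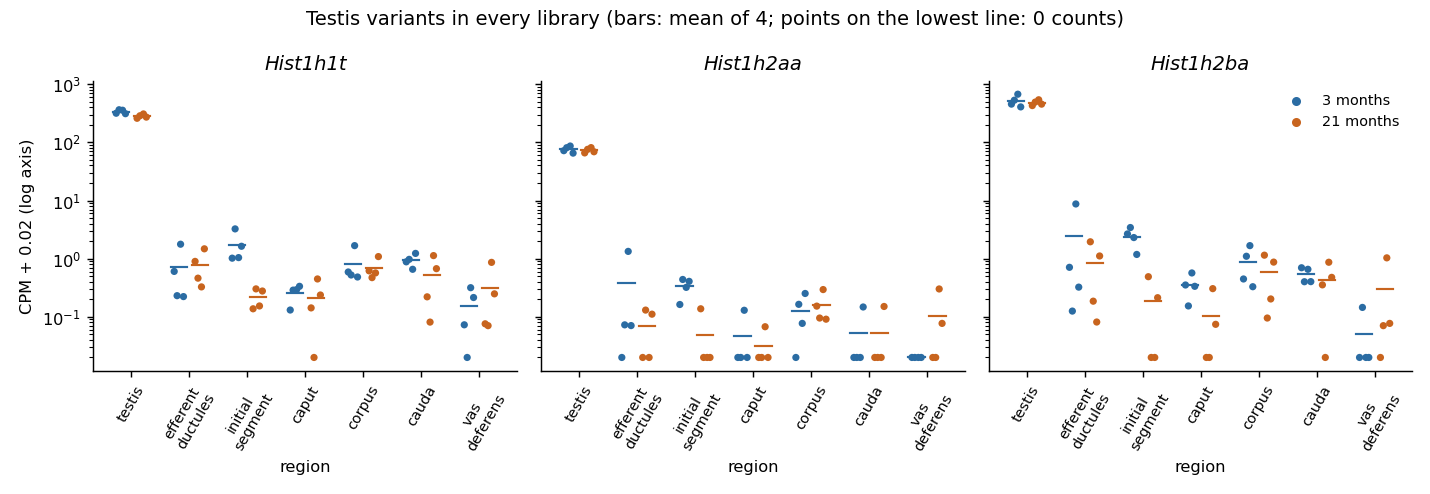
CPM of the 3 testis variants in each of the 56 libraries by region and age, on a log axis after adding 0.02, with bars at the mean of 4. The testis libraries lie between 65.3 and 673 CPM and no duct library of either age passes 8.70 CPM.

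Leading genes were compared within each histone class. Shares of a class's summed CPM per kb, testis variants left out, were used to compare genes. Hist1h1a, a linker histone gene, held 82.4% ± 0.92 of the H1 pool in the testis at 3 months and 4.18% to 7.79% in the efferent ductules, initial segment, caput and vas deferens. Hist1h1c, a linker histone gene known to give polyadenylated transcripts also, held 14.4% ± 1.24 in the testis and 63.1% to 78.8% in the 6 ducts. For H2A the leader was Hist1h2ak in the testis at 33.3% ± 2.38 and Hist2h2ac in each of the 6 ducts at 31.4% to 39.8%. For H2B it was Hist1h2bm in the testis at 18.3% ± 0.70, where Hist1h2bp followed at 16.1% ± 2.01, and Hist1h2bc in each duct at 26.1% to 52.6%. For H3 it was Hist1h3a in the testis at 30.4% ± 2.35 and Hist1h3e in each duct at 36.5% to 46.1%. The H4 pool had no single leader in the testis, where Hist1h4k held 20.3% ± 0.89, Hist1h4c 18.2% ± 0.70 and Hist1h4h, in its 4 libraries, 20.6%, 19.0%, 19.2% and 21.3%, ahead of Hist1h4k in replicate 4. In the ducts Hist1h4d led in the initial segment at 38.4% ± 1.94 and caput at 36.3% ± 2.01, and Hist1h4h led in the other 4 at 29.6% to 33.0% (all SD, n = 4).

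In the comparison of testis and ducts a gene was called where testis and duct average (6 regions) differed at least 4-fold with an adjusted p under 0.05. At 3 months 67 members had enough counts to be tested, and 18 were higher and 6 lower in the testis, against 30.8% of all genes higher and 16.6% lower. At 21 months 18 were higher and 7 lower, against 30.4% and 17.1% of all genes. Of the 64 tested other than the variants, 15 were higher and 6 lower at 3 months, and 15 higher and 7 lower at 21 months. The share of members called was in neither direction above that of all genes. Against each duct region in turn, 12 of the 18 and 2 of the 6 passed at 3 months. The share of all genes that pass this stricter rule is not given here. With DESeq2's size factors the split was 23 higher and 5 lower at 3 months, and 24 higher and 4 lower at 21 months. That scaling moved the median of all genes from 0.13 to 0.53 and from 0.10 to 0.53. The shares of all genes called under it are not given here, so these splits cannot be set against the shares above.

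Besides the variants, the members highest in the testis were 5 H2B genes, 1 H1, 4 H2A and 5 H4 genes, and no H3 gene. Hist1h2bp, an H2B gene, stood at 15.1, 22.2, 22.8 and 17.9 CPM in the testis at 3 months and at no more than 0.783 CPM in any duct library. The difference was 7.11 ± 0.25 (SE) on the log2 scale (adjusted p = 1.98e-21, edgeR quasi-likelihood F-test). Hist3h2ba, the H2B gene of the small cluster on chromosome 11, stood at 9.96, 10.9, 13.5 and 8.53 CPM in the testis and at 0 to 1.28 CPM in the ducts, a log2 difference of 5.26 ± 0.27 (SE). Hist1h1a stood at 99.5, 102, 114 and 78.5 CPM in the testis and at 1.11 to 6.20 CPM in the ducts, a log2 difference of 5.04 ± 0.12 (SE). All 3 separated testis from duct libraries without overlap. Smaller log2 differences were found for Hist1h2bm at 3.8 ± 0.18 (SE), Hist1h4k at 3.09 ± 0.13 (SE) and Hist1h4c at 2.90 ± 0.10 (SE). Hist1h2ak and Hist1h3a, which led their classes in the testis, differed by 1.31 and 1.37 and were under the 4-fold limit at 3 months.

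The 6 members lower in the testis at 3 months came from both the large and the Hist2 cluster. Hist2h4, an H4 gene of chromosome 3, stood at 1.37 to 2.78 CPM in the testis and at 8.51 to 31.7 CPM in the duct libraries, a log2 difference of -3.39 ± 0.16 (SE). Hist2h3b differed by -3.48 ± 0.35 (SE). All of its exon lies opposite another gene, Gm20628, and 77.1% of its stretches are shared, so its level is uncertain. Hist1h3e, the leading H3 gene of the ducts, stood at 4.98 to 5.18 CPM in the testis and at 9.13 to 64.5 CPM in the ducts, a difference of -2.50 ± 0.16 (SE). Hist1h2bc, an H2B gene known to give polyadenylated transcripts also, stood at 4.88 to 6.82 CPM in the testis and at 11.8 to 91.9 CPM in the ducts, a difference of -2.48 ± 0.14 (SE). Hist1h2af and Hist1h1e differed by -2.61 ± 0.42 and -2.13 ± 0.22 (SE). At 21 months Hist2h2ac at -2.34 ± 0.31 and Hist1h2be at -2.16 ± 0.23 (SE) also passed, and Hist1h2af at -1.19 did not.

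**Figure D2:**
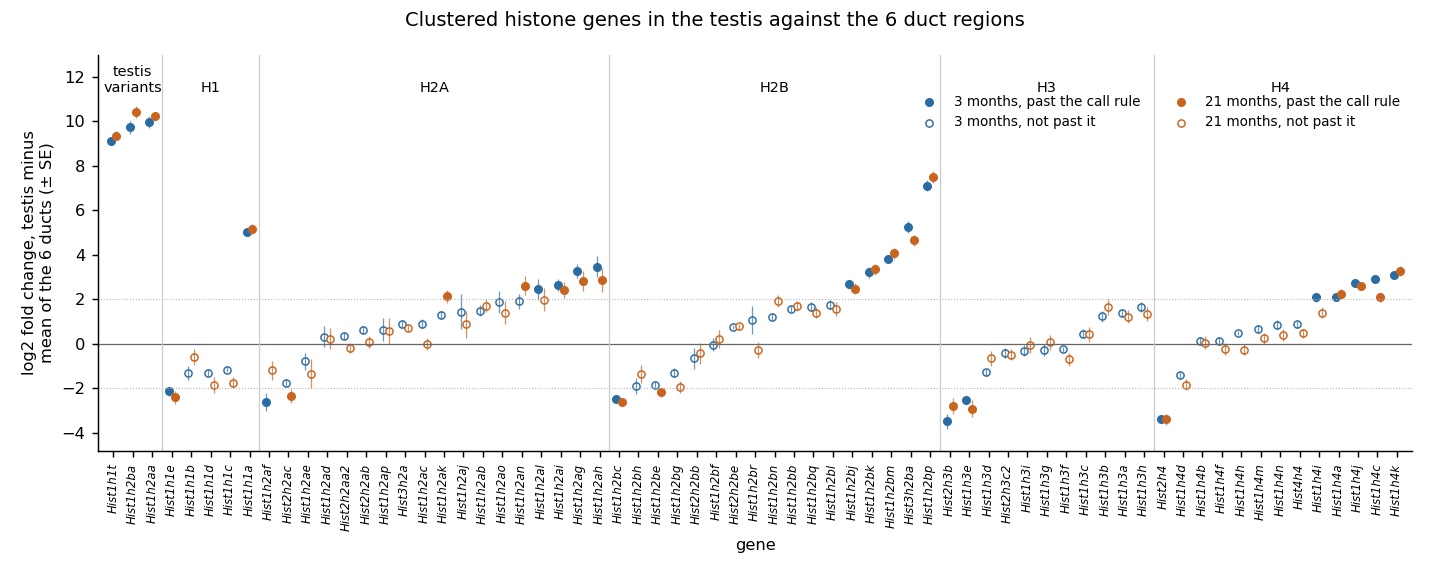
Fitted log2 difference, testis minus the average of the 6 ducts, for the 67 members tested, by class, at 3 months (blue) and 21 months (orange), with SE; filled points passed the call rule and dotted lines mark 4-fold. The 3 variants lie at 9.12 to 10.4, Hist1h2bp at 7.11 and 7.52, and 6 members at 3 months and 7 at 21 months lie below -2 and passed.

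Genes outside the clusters that handle histones were counted by the same rule at 3 months. Among 20 S phase genes 6 were higher in the testis, against 30.8% of all genes, and the median of the 20 was 1.75 on the log2 scale against 0.13 for all genes. Among 19 tested genes of histone mRNA processing 3 were higher and 1 lower, and Slbp, which binds the stem-loop of histone mRNAs, differed by 2.05 ± 0.08 (SE). Among 18 histone chaperones 5 were higher and 2 lower, with Nasp, a carrier of H1 and H3-H4, at 4.49 ± 0.09 and Asf1b, which hands over H3-H4, at 4.45 ± 0.16 (SE). Among 11 replication-independent variants 2 were higher and 2 lower, with H2afx, which is phosphorylated at DNA breaks, at 3.55 ± 0.10 and the linker histone of resting cells, H1f0, at -2.91 ± 0.11 (SE). Of 15 tested testis and germ cell histones, transition proteins and protamines outside the clusters 14 were higher, with a median of 7.55.

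Levels were also compared among the 6 ducts. At 3 months 60 of 67 members differed (adjusted p under 0.05, edgeR quasi-likelihood F-test), against 71.8% of all genes, and at 21 months 50 of 67, against 72.4%. The 66 members other than the testis variants summed to 770 ± 104 CPM (SD, n = 4) in the corpus and to 215 ± 8.13 CPM in the vas deferens at 3 months, the highest and lowest of the ducts. Hist1h4d was highest in the initial segment, at 130, 142, 128 and 144 CPM (mean 136 ± 8.14, SD, n = 4). It was 58.3 to 116 CPM in the caput, 60.8 to 87.0 in the corpus, 48.1 to 61.5 in the cauda, 31.6 to 41.5 in the efferent ductules and 11.2 to 13.3 in the vas deferens. The initial segment did not overlap any other duct, while the caput overlapped the corpus and cauda, and the corpus overlapped the cauda. Hist1h4b ran from 0.749 ± 0.265 CPM in the vas deferens to 13.4 ± 2.47 CPM in the corpus (SD, n = 4). Hist2h3b ran from 0.186 ± 0.064 CPM in the vas deferens to 3.83 ± 1.42 CPM in the caput. Hist1h2bc was lowest in the efferent ductules at 12.8 ± 1.34 CPM and highest in the corpus at 79.7 ± 8.74 CPM. The 3 testis variants differed among the ducts at 3 months, and none of the 3 passed at 21 months.

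Age was tested in each region on its own, and members' CPM beside an age comparison were scaled within the 8 libraries of the region, while marker sums were scaled over all 56. In the testis 1 of 64 members passed at an adjusted p under 0.05, and that 1 was lower, against 0.563% of all genes in either direction and 0.21% lower. A second rule, at least 1.5-fold with p before adjustment under 0.05, gave 4 members against 2.71% of all genes. With a replicate block, which here joins same-numbered libraries of different mice across the ages, 8 members passed. With no filter on low counts it was 9, and with edgeR's filterByExpr or all 56 libraries in one fit 0. Shares of all genes in these alternative fits are not given here. Hist1h4c, an H4 gene, stood at 57.2, 59.9, 73.5 and 54.9 CPM at 3 months and at 43.8, 48.6, 52.1 and 45.5 CPM at 21 months. The ages did not overlap, and the change was -0.37 ± 0.08 (SE, log2; adjusted p = 0.0329, edgeR quasi-likelihood F-test). The call was lost without replicate 2 or 3 of 3 months or without replicate 1, 2 or 4 of 21 months, with adjusted p-values up to 0.167. Estimates were negative for 51 of the 64, with a median of -0.20 against -0.01 for all genes, and without replicate 3 of 3 months for 42, with a median of -0.10. Between ages 4 members did not overlap, against 6.31% of all genes.

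None of the testis variants passed with age in the testis by the test used here. Hist1h1t stood at 305, 349, 344 and 302 CPM at 3 months and at 250, 276, 296 and 263 CPM at 21 months. These values did not overlap, but the change of -0.26 ± 0.06 (SE) missed the threshold (adjusted p = 0.0543, edgeR quasi-likelihood F-test). It passed without replicate 1 or 4 of 3 months, with an adjusted p down to 0.0243, and by DESeq2's test, with library size only as the scaling and with no filter on low counts. Hist1h2ba ran from 395 to 650 CPM at 3 months and from 413 to 519 CPM at 21 months, and Hist1h2aa from 63.3 to 83.5 and from 63.4 to 78.1 CPM. Both overlapped between ages, with changes of -0.11 ± 0.10 and -0.06 ± 0.08 (SE) that turned to 0.045 and 0.0036 without replicate 3 of 3 months. Whether age acted differently in the testis and the mean of the ducts was tested over all 56 libraries, and 0 of 68 members passed, against 0.0649% of all genes (edgeR quasi-likelihood F-test). At an unadjusted p under 0.05 there were 7, for which the share of all genes is not given here, and DESeq2 called 0.

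**Figure D3:**
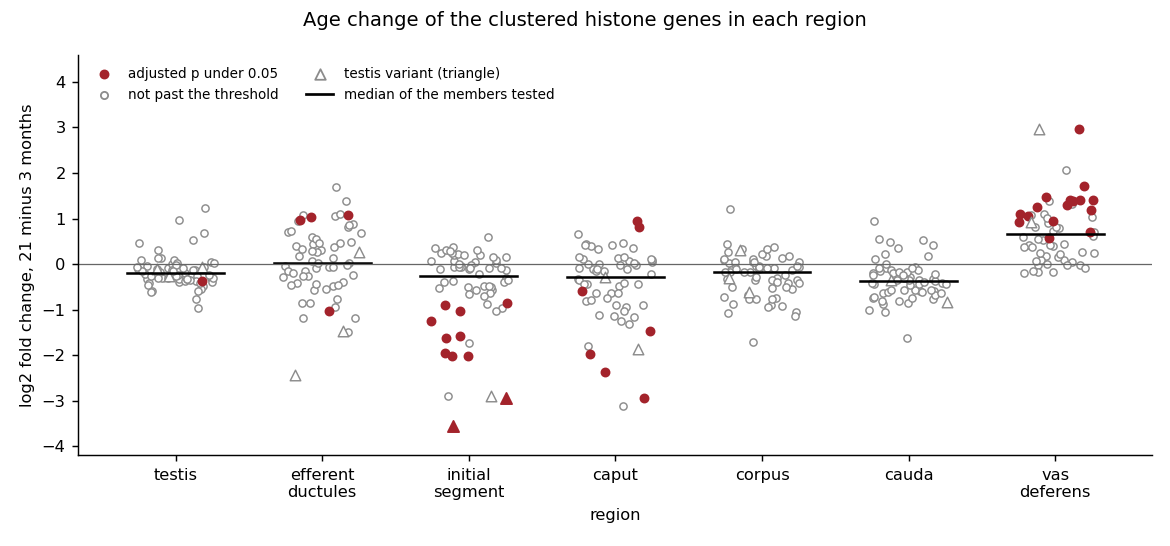
Fitted log2 change from 3 to 21 months for each member tested, by region; filled points have an adjusted p under 0.05, triangles are testis variants and bars are medians. The filled points lie below 0 in the initial segment (11 of 64), on both sides in the caput (2 above, 5 below) and above 0 in the vas deferens (16 of 60).

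In the initial segment, the first part of the epididymis, 11 of 64 members fell and none rose, against 6.36% of all genes in either direction and 3.01% lower. By the 1.5-fold rule it was 18 against 11.5%. The testis variants had the largest changes. Hist1h2ba stood at 2.66, 3.18, 2.27 and 1.18 CPM at 3 months and at 0.496, 0, 0 and 0.209 CPM at 21 months. It fell by 3.56 ± 0.60 (SE) on the log2 scale (adjusted p = 0.00315, edgeR quasi-likelihood F-test), from 150 to 11 counts. Hist1h1t stood at 1.01, 3.01, 1.02 and 1.64 CPM and then at 0.124, 0.314, 0.146 and 0.279 CPM, and fell by 2.94 ± 0.50 (SE; adjusted p = 0.00311), from 110 to 12 counts. Hist1h2aa had 20 counts at 3 months and 2 at 21 months, and its estimate of -2.89 ± 0.93 (SE) missed the threshold (adjusted p = 0.0861). None of the 3 overlapped between ages. At 3 months their levels in the initial segment were 0.410% to 0.509% of those in the testis, and at 21 months 0.0346% to 0.0703%.

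The other 9 members that fell in the initial segment were from every class. Hist1h4k, an H4 gene, stood at 3.31, 4.02, 4.30 and 3.47 CPM at 3 months and at 1.05, 0.471, 1.83 and 0.349 CPM at 21 months, a fall of 2.02 ± 0.36 (SE). Hist1h1b, a linker histone gene of dividing cells, stood at 2.45, 1.62, 6.81 and 2.23 CPM and then at 0.628 to 0.976 CPM, a fall of 2.01 ± 0.43 (SE). For Hist1h3i, an H3 gene, the values were 2.81, 2.62, 5.08 and 3.14 CPM and then 0.471 to 1.18 CPM, a fall of 1.96 ± 0.31 (SE). Hist1h2ak (H2A), Hist1h2bn (H2B), Hist1h4j, Hist1h3a, Hist1h1a and Hist1h4a fell by 1.63, 1.58, 1.25, 1.03, 0.90 and 0.86. For all 11 the libraries of 3 months lay above those of 21 months, and in 8 of the 11 replicate 3 of 3 months was the highest. In all, 14 members did not overlap between ages, against 12.4% of all genes. The summed level of the 66 members other than the variants was 554 ± 46.2 CPM at 3 months and 564 ± 85.7 CPM at 21 months (SD, n = 4), and 561 ± 34.8 and 520 ± 81.2 CPM when scaled over all 56 libraries, while no member that fell exceeded 8.06 CPM in any library. Leaving out each library in turn gave 8 to 11 members that fell.

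Germ cell transcripts were also compared between ages in the initial segment. The 9 spermatid markers summed to 73.6, 112, 32.5 and 71.6 CPM at 3 months and to 9.29 to 24.5 CPM at 21 months, without overlap. Replicate 3 of 3 months, the highest library for 8 of the 11 members, held the lowest spermatid sum of that age. The 9 spermatocyte markers summed to 29.9 to 56.6 CPM and then to 22.9 to 33.2 CPM, which overlap. By single genes 7 of the 9 spermatid and 4 of the 9 spermatocyte markers fell and none rose, each list with a median of -2.14, and no marker of either list was at 0 in all libraries of an age. Of 7 spermatogonia markers 5 were tested and 0 passed, with a median of 0.14. Of 10 tested germ cell histones, transition proteins and protamines outside the clusters 7 fell, with Hils1, a spermatid linker histone, at -3.41 ± 0.67, Tnp2 at -3.34 ± 0.47, Tnp1 at -2.82 ± 0.60 and Prm1 at -2.68 ± 0.40 (SE). Markers of 8 T cell genes summed to 5.03 to 6.52 CPM and then to 9.47 to 12.6 CPM, and those of 8 B and plasma cell genes to 6.91 to 12.8 CPM and then to 28.6 to 219 CPM. Of 7 macrophage markers 3 rose, with sums of 217 to 234 CPM and then 242 to 299 CPM, and of 5 smooth muscle markers 2 fell, with sums of 675 to 1045 CPM and then 522 to 613 CPM. None of the 20 S phase genes passed in the initial segment, where Mki67, a marker of cycling cells, had an estimate of -0.60 ± 0.17 (SE; adjusted p = 0.0526) and Ccna2, the cyclin of S phase, -0.53 ± 0.28 (SE; adjusted p = 0.335). The part of these cells' transcripts in the result was not tested.

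In the caput 5 of 61 members fell and 2 rose, against 8.14% of all genes in either direction, 5.05% lower and 3.09% higher. By the 1.5-fold rule it was 20 against 13.2%. With library size only as the scaling, which moved the median of all genes from -0.01 to 0.19, 3 fell and 1 rose. Hist1h2ak stood at 2.26, 1.97, 3.25 and 3.07 CPM at 3 months and at 0.175 to 0.462 CPM at 21 months, and fell by 2.94 ± 0.33 (SE; adjusted p = 0.000463, edgeR quasi-likelihood F-test). Hist1h1b, Hist1h3i and Hist1h4k fell by 2.38 ± 0.44, 1.97 ± 0.43 and 1.47 ± 0.39 (SE). These 4 were also among the 11 that fell in the initial segment, 80.0% of the caput list and 36.4% of the initial segment list. Hist1h2bc also fell by 0.60 ± 0.16 (SE). Hist1h4h rose, from 21.3, 13.7, 20.4 and 25.0 CPM to 36.5, 36.2, 33.2 and 37.9 CPM, a change of 0.82 ± 0.15 (SE; adjusted p = 0.00687), and Hist1h2bg rose by 0.95 ± 0.25 (SE). Hist1h4k and Hist1h2bc overlapped between ages, the other 5 did not, and 8 members in all did not overlap against 16.9% of all genes. Mki67 fell by 1.28 ± 0.29 and Ccna2 by 1.11 ± 0.27 (SE), the only 2 of 20 S phase genes called there. Spermatid markers summed to 105 to 142 CPM and then to 88.3 to 94.4 CPM, T cell markers to 3.15 to 5.38 CPM and then to 9.45 to 14.8 CPM, and smooth muscle markers to 926 to 1223 CPM and then to 645 to 733 CPM, each without overlap. Of 7 macrophage markers 3 rose, with sums of 134 to 143 CPM and then 179 to 213 CPM, and of 8 B and plasma cell markers 2 rose, with sums of 7.17 to 11.2 CPM and then 9.28 to 51.7 CPM, which overlap. Their part in the result was not tested. Hist1h2ak, Hist1h1b and Hist1h4h passed in all 8 fits without 1 library. Without replicate 2 of 3 months, the library rich in Gm42418, 5 members passed. The count was 12 without replicate 1 of 3 months, 4 without replicate 4 of 21 months, and 3 without replicate 4 of 3 months or any other single library of 21 months.

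**Figure D4:**
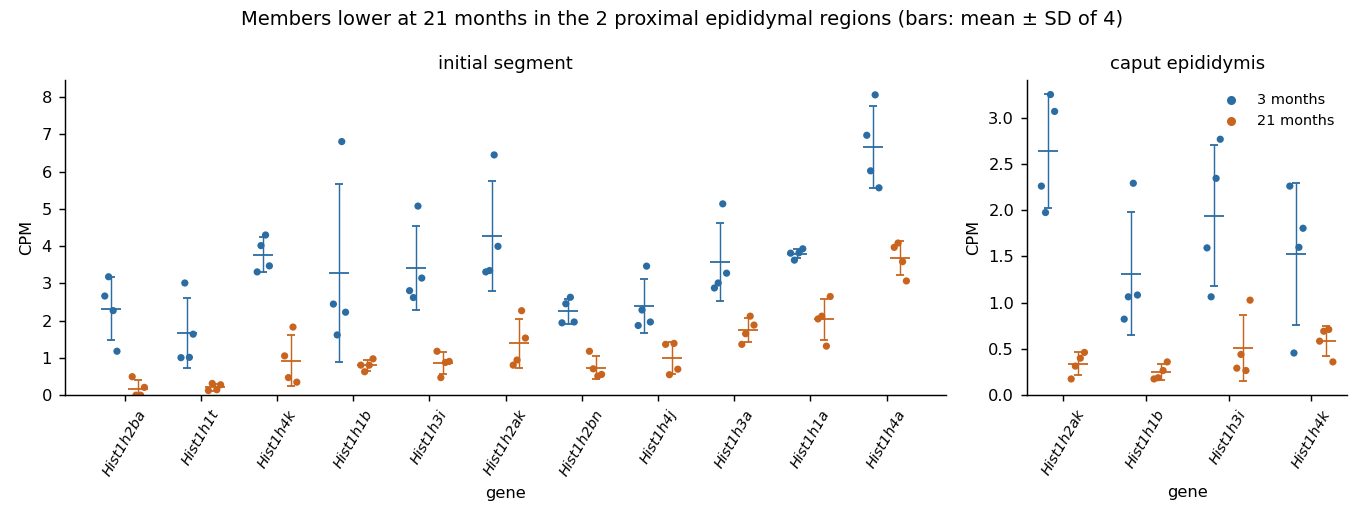
CPM in each library of the 11 members that fell in the initial segment and of the 4 that fell by over 1 on the log2 scale in the caput, with the mean and SD of 4 at each age. In the initial segment every blue point (3 months) lies above every orange point (21 months) of the same gene, and in the caput Hist1h4k overlaps through 1 library at 0.456 CPM.

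In the efferent ductules, which join the testis to the epididymis, 3 of 63 members rose and 1 fell, against 6.99% of all genes in either direction, 4.0% higher and 2.98% lower. By the 1.5-fold rule it was 13 against 12.8%. With library size only as the scaling, which moved the median of all genes from -0.04 to -0.38, 3 rose and 2 fell. With the DESeq2 test 7 passed, and the count was lower with a replicate block and higher in a joint fit of all 56 libraries. Hist1h1c stood at 67.8, 70.1, 59.5 and 62.9 CPM at 3 months and at 157, 79.2, 98.1 and 175 CPM at 21 months, and rose by 0.97 ± 0.22 (SE; adjusted p = 0.030, edgeR quasi-likelihood F-test). Hist1h2bc rose by 1.08 ± 0.24 and Hist2h4 by 1.04 ± 0.24 (SE). Hist2h2be, an H2B gene known to give polyadenylated transcripts also, fell by 1.04 ± 0.18 (SE; adjusted p = 0.0133), from 8.15 to 9.33 CPM down to 3.46 to 5.70 CPM. All 4 separated the ages without overlap. Replicates 1 and 4 of 21 months held the highest values of the 3 genes that rose. These were also the libraries with the fewest counts of all 56, 11442133 and 11125279, and Gm42418 took 22.2% and 18.5% of them, against 14.9% and 4.93% in replicates 3 and 2 and 1.27% to 3.29% at 3 months. Without both, a choice made after seeing the data, 3 of 63 members rose and 11 fell, against 7125 of all 25444 genes in either direction, 15.1% higher and 12.9% lower. The rises of Hist1h1c, Hist1h2bc and Hist2h4 were then 0.45, 0.55 and 0.50. T cell markers summed to 5.52 to 6.31 CPM at 3 months and to 14.4 to 16.2 CPM at 21 months, and B and plasma cell markers to 33.8 to 46.0 CPM and then to 622, 453, 385 and 156 CPM. Macrophage markers summed to 310 to 340.3 CPM and then to 431 to 638 CPM, with 5 of 7 genes higher, and red blood cell markers to 17.3 to 29.8 CPM and then to 38.4 to 114 CPM, with 4 of 5 higher. Of 5 smooth muscle markers 2 rose, with sums of 554 to 611 CPM and then 576 to 754 CPM, which overlap. Of 9 duct epithelium markers 2 rose and 1 fell, with a median of 0.83 (log2), and their sums of 3335 to 3771 CPM and then 2934 to 3365 CPM overlapped. Their part in the result was not tested. Among the S phase genes Mki67, Ccna2, Mcm3 and Mcm5 fell in this region, and none rose. The count fell to 0 without replicate 1 or 4 of 3 months, to 1 without replicate 3, which held more germ cell transcripts than its group, and to 2 without replicate 2 of 3 months or replicate 4 of 21 months. It was 7 without replicate 2 or 3 of 21 months.

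In the corpus 0 of 65 members passed, against 2.97% of all genes (edgeR quasi-likelihood F-test). At an unadjusted p under 0.05 there were 13, of which 11 had a negative estimate, and DESeq2 called 3. The share of all genes at these thresholds is not given here. With a replicate block, which joins libraries of different mice across the ages, 4 passed. With library size only as the scaling it was 4 and with no filter on low counts 7. Shares of all genes in these alternative fits are not given here. By the 1.5-fold rule it was 9 against 6.84%. In the cauda 0 of 62 passed, against 0.128% of all genes (edgeR quasi-likelihood F-test). At an unadjusted p under 0.05 there were 3, again without a share of all genes, DESeq2 called 0, and the 1.5-fold rule gave 3 against 8.3%. Estimates were negative for 52 of the 62 in the cauda, with a median of -0.36 against 0.0028 for all genes. The 66 members other than the variants summed there to 516 to 559 CPM at 3 months and to 455, 227, 626 and 553 CPM at 21 months, so that replicate 2 of 21 months lay below the other 7 libraries. Without that library 35 of 61 estimates were negative, with a median of -0.10.

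In the vas deferens 16 of 60 members rose and none fell, against 19.9% of all genes in either direction and 11.4% higher. By the 1.5-fold rule it was 20, all higher, against 17.8%. They were 3 H1, 2 H2A, 4 H2B, 2 H3 and 5 H4 genes. Hist1h4d stood at 16.6, 15.7, 14.6 and 14.1 CPM at 3 months and at 31.8, 32.6, 39.8 and 57.8 CPM at 21 months, and rose by 1.41 ± 0.18 (SE; adjusted p = 0.000903, edgeR quasi-likelihood F-test). Hist1h2bc stood at 20.7, 22.1, 16.3 and 19.2 CPM and then at 35.6, 35.3, 41.9 and 38.8 CPM, and rose by 0.95 ± 0.11 (SE; adjusted p = 0.000599). Hist1h1c stood at 52.1 to 55.5 CPM and then at 61.9, 60.1, 101 and 132 CPM, a rise of 0.70 ± 0.22 (SE; adjusted p = 0.0431). Hist2h3b stood at 0.263, 0.228, 0.300 and 0.122 CPM and then at 1.51, 1.07, 1.93 and 2.82 CPM. This was the largest rise among the 16, at 2.96 ± 0.43 (SE), with 14 and 112 counts. All of its exon lies opposite Gm20628 and 77.1% of its stretches are shared, so its level is uncertain. Hist1h4b and Hist1h2ac rose by 1.70 ± 0.39 and 1.47 ± 0.45 (SE). Of the exon of Hist1h4b 56.2% lies opposite another gene, 4930558J22Rik, and 44.0% of its stretches are shared. Hist1h1e and Hist1h1d, linker histone genes, rose by 1.42 ± 0.32 and 1.41 ± 0.42 (SE), and the rest by 0.56 to 1.39. Of the 60 tested, 14 did not overlap between ages, against 25.0% of all genes, and of the 16 that rose Hist1h2bg and Hist1h3f overlapped. Estimates were positive for 52 of the 60, with a median of 0.66 against 0.02 for all genes, and without replicate 4 of 21 months for 43 of 59, with a median of 0.38.

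In 15 of the 16 replicate 4 of 21 months held the highest value. The 66 members other than the variants summed to 250 to 273 CPM at 3 months and to 334, 313, 441 and 630 CPM at 21 months. Lymphocyte markers were also higher at 21 months. The 8 T cell genes summed to 6.08 to 9.94 CPM at 3 months and to 36.8, 21.9, 23.7 and 66.3 CPM at 21 months. The 8 B and plasma cell genes summed to 18.5 to 37.3 CPM and then to 1171, 781, 948 and 1628 CPM. Replicate 4 was highest in both lists. Among the other libraries of 21 months both lists were highest in replicate 1, and the members' sum in replicate 3. Duct epithelium markers summed to 20487 to 23082.5 CPM and then to 17535, 17006, 17186 and 11088 CPM, while of these 9 genes 4 rose and 2 fell, with a median of 0.68 (log2). Smooth muscle markers summed to 10341 to 11179 CPM and then to 14980, 15658, 18876 and 11833 CPM, and 4 of the 5 rose, with a median of 0.48. The part of these cells in the result was not tested. Without replicate 4 of 21 months 10 members rose, without replicate 3 it was 9, without replicate 1 it was 14 and without replicate 2 it was 18, and without any single library of 3 months 7 or 8. Of S phase genes Mcm2 and Mcm4, parts of the replicative helicase, rose by 0.75 ± 0.20 and 0.50 ± 0.14 (SE), while Rrm2, a subunit of ribonucleotide reductase, and Pola1, of the primase complex, fell by 0.77 ± 0.19 and 0.34 ± 0.10 (SE).

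**Figure D5:**
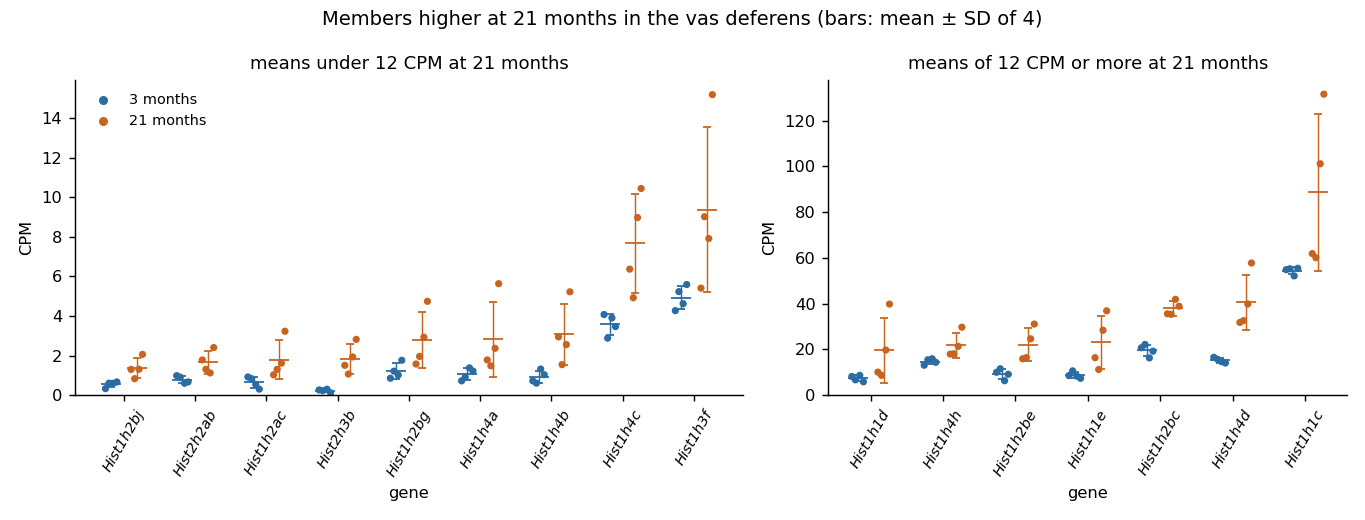
CPM in each vas deferens library of the 16 members that rose, with the mean and SD of 4 at each age, split at a mean of 12 CPM at 21 months because of their range. All libraries of 21 months lie above those of 3 months for 14 of the 16, and the widest spread at 21 months comes from replicate 4.

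The age effect in the vas deferens was also compared with that in the other 5 ducts. In a fit of all 56 libraries the age effect there minus the mean of the other ducts passed for 15 of 68 members, all higher, against 8.31% of all genes in either direction and 7.03% higher. This contrast was chosen after the results of each region were seen. The difference was 3.02 ± 0.48 (SE) on the log2 scale for Hist2h3b (adjusted p = 1.59e-05, edgeR quasi-likelihood F-test), 2.24 ± 0.47 for Hist1h1b, 2.23 ± 0.42 for Hist1h4b and 2.07 ± 0.39 for Hist1h4a. The overlapping exons and shared stretches of Hist2h3b and Hist1h4b limit these values too. Hist1h4a fell by 0.86 ± 0.18 in the initial segment and rose by 1.39 ± 0.43 in the vas deferens (SE). Estimates were positive for 65 of the 68, with a median of 1.09 against 0.17 for all genes. The count was 10 without vas deferens replicate 4 of 21 months and 23 without replicate 2. The 3 testis variants did not pass in it.

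Genes outside the clusters were tested with age in the same fits, in which 19.9% of all genes passed in the vas deferens. Genes of histone mRNA processing passed in the vas deferens, 3 higher (Upf1, Sympk and Srrt) and 2 lower (Cpsf2 and Lsm11) of 19, and in the efferent ductules, 1 lower, and in no other region. Slbp passed in no region, with estimates from -0.44 in the caput to 0.13 in the cauda. Of 18 histone chaperones 3 rose and 3 fell in the vas deferens and Chaf1b fell by 1.07 ± 0.23 (SE) in the efferent ductules. Of 11 replication-independent variants H2afx, H2afj and H2afy rose in the vas deferens by 0.93 ± 0.19, 0.72 ± 0.12 and 0.60 ± 0.10 (SE), H1f0 and H2afx rose in the efferent ductules by 0.64 ± 0.15 and 0.53 ± 0.12 (SE), and H1fx and H1f0 fell in the caput by 0.92 ± 0.17 and 0.51 ± 0.11 (SE). In the testis Hils1 fell by 0.24 ± 0.06 (SE; adjusted p = 0.0488, edgeR quasi-likelihood F-test), the only call with age there in any of the 5 lists. Of the germ cell genes, Tnp2 rose by 2.93 ± 0.83 in the vas deferens, and Prm1 and Prm2 fell by 0.73 ± 0.16 and 0.83 ± 0.19 in the caput (SE). In the corpus Ccna2 and Mki67 fell by 1.21 ± 0.29 and 1.12 ± 0.21 and Rrm2 rose by 0.54 ± 0.13 (SE), while 0 of the 65 members passed there in the same fit.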

How the data were processed

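Total RNA was sequenced from 7 regions at 2 ages with 4 libraries per group. Per the labels RNA was taken with TRIzol and libraries were made with a stranded total RNA kit. The deposited counts per Ensembl gene were made by the authors; HISAT2, HTSeq, cutadapt and mm10 appear in the submitters' processing notes, and versions and the settings for strand and multiply matched reads are not given in the sources used here. The study's methods name an RNeasy kit and Hisat2 against GRCm38. Row identifiers were joined to GENCODE M21 symbols, which matched 53274 of 53379.

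Genes with at least 10 counts over the libraries of a fit were tested by edgeR (4.0.16, R 4.3.3) quasi-likelihood F-tests with TMM scaling and Benjamini-Hochberg adjustment over all genes; SEs are the fitted change over the root of F. Age was fitted in 8 libraries of a region, and testis against ducts in 28 libraries of an age. The 1.5-fold age rule is the study's, with edgeR in place of DESeq2; its 4-fold limit was applied here to the average of the 6 ducts with an adjusted p. CPM across regions were scaled over 56 libraries. Fits were tested on simulated data: with 100 genes changed 2-fold, 91 were recovered for age in the testis and 79 for the age effect of the testis against the ducts. The changed genes were drawn from well-counted genes, all genes had the same spread, and age within a duct region was not simulated. These rates therefore do not describe members with few counts or regions with libraries that stood apart. DESeq2 (1.42.0), other scalings and filters, a replicate block and each library left out were alternatives. In an age fit the block joined libraries of the same number from different mice, so it does not stand for a pairing of animals.

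The members, gene lists and tests were chosen with earlier results of these data known. In full are named the 3 testis variants, Hist1h1a, Hist1h1c, Hist1h2bc, Hist2h2be, the gene leading each class in testis and ducts, up to 3 members per region and direction with age at 1 CPM or more, and the 3 with the widest range among ducts at a mean of 1 CPM or more. Other members were named after their values were seen.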

Additional observations from a re-analysis of the deposited data

Results flagged for a closer look

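Summed CPM of the testis variants, of each class and of all members other than the variants were compared among the 4 libraries of each region and age, and a library was picked out where its gap to the nearest other exceeded Dixon's 95% critical value. Chance picks out about 1 in 20 groups. Of 98 groups, 6 held such a library. For the testis variants it was efferent ductule replicate 3 of 3 months at 11.8 CPM (0.369 to 1.27 in the others), initial segment replicate 2 of 3 months at 7.06 CPM (3.16 to 3.79) and vas deferens replicate 3 of 21 months at 2.14 CPM (0.0558 to 0.342). For H1 it was corpus replicate 4 of 21 months at 310.4 CPM (177 to 199) and cauda replicate 3 of 3 months at 148 CPM (164 to 167). For H3 it was caput replicate 2 of 3 months at 41.5 CPM (65.3 to 70.1).

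The age effect in the vas deferens differed from the mean of the other ducts for 15 of 68 members by a test of the difference. That contrast was chosen after the results of each region were seen in these same libraries, so it is no independent check of them. Among members called with age in more than 1 region, 3 had opposite signs, and 2 of them had no overlap of ages in either region. Hist1h4a changed by -0.86 in the initial segment and by 1.39 in the vas deferens, and passed in the contrast of the vas deferens with the other ducts (2.07 ± 0.39, SE; adjusted p = 0.000238, edgeR quasi-likelihood F-test). Hist1h2bc, whose ages overlapped in the caput, changed by -0.60 there, by 1.08 in the efferent ductules and by 0.95 in the vas deferens, and passed in the same contrast (0.98 ± 0.18, SE; adjusted p = 0.000158, edgeR). Hist1h4c changed by -0.37 in the testis and by 1.09 in the vas deferens. The difference between testis and vas deferens was not tested, and Hist1h4c did not pass in the contrast of the vas deferens with the other ducts (0.94, adjusted p = 0.0659).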

How the results depend on the processing

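The counts of members called with age changed under several settings. By an unadjusted p under 0.05 and 1.5-fold the caput had 20, the initial segment 18, the efferent ductules 13, the corpus 9, the testis 4 and the cauda 3. With library size only as the scaling, 3 passed in the testis, 4 in the caput and 4 in the corpus. With the DESeq2 test it was 3 in the testis, 7 in the efferent ductules and 3 in the corpus. With no filter on low counts it was 9 in the testis and 7 in the corpus, with edgeR's filterByExpr 0 in the testis, and with 56 libraries in one fit 0 in the testis and 8 in the efferent ductules. Apart from the 1.5-fold rule, shares of all genes under these settings are not given here. The cause was not tested. The labels do not tie replicate numbers to mice. Deviations of same-numbered libraries had a mean r of 0.034 and 0.0041 over pairs of regions at 3 and 21 months, and all 4 numbers were over 0.1 in 1 of 21 pairs of regions (corpus and cauda) at 3 months, 0 of 21 at 21 months and 0 of 7 pairs of ages. With a replicate block, which in an age fit joins different mice, 8 passed in the testis, 2 in the efferent ductules and 4 in the corpus. Leaving out 1 library, the caput had 3 to 12, the initial segment 8 to 11, the efferent ductules 0 to 7, the testis 0 to 4, the corpus 0 to 2, the cauda 0, the vas deferens 7 to 18 and its contrast with the other ducts 10 to 23. Without testis replicate 3 of 3 months the changes of Hist1h2aa and Hist1h2ba turned to 0.0036 and 0.045, and the lowest values without another single library were -0.13 and -0.21. Against each duct in turn 14 and 11 members passed at 3 and 21 months, by construction a stricter rule, whose share of all genes is not given here. Against the mean of the ducts 23 to 27 and 26 to 28 passed when the libraries of 1 replicate number, or 1 library, were left out. Among the ducts 55 to 59 and 34 to 46 then differed. Leaving out efferent ductule replicate 3 (26 against the ducts) or caput replicate 2 (23) of 3 months was chosen after seeing the data, as was leaving out efferent ductule replicates 1 and 4 of 21 months together, with which 14 passed with age there (3 higher, 11 lower).

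DESeq2's size factors moved the median of all genes between testis and ducts from 0.13 to 0.53 at 3 months and from 0.10 to 0.53 at 21 months. With them the variants summed to 1118 and 1006 CPM in the testis, and the other members to 729 and 623 CPM there and to 520 CPM in the cauda at 3 months. With library size only the other members summed, at 3 months, to 399.7 CPM (efferent ductules), 542 CPM (cauda) and 268 CPM (vas deferens) and to 573 CPM in the corpus at 21 months. With Gm42418 left out the variants summed to 941 CPM in the testis at 21 months, and the other members to 584 CPM there, and at 3 months to 364 CPM (efferent ductules), 633 CPM (initial segment), 650.5 CPM (cauda) and 244 CPM (vas deferens), and to 560.1 CPM in the caput at 21 months. Of the single members' values under settings other than a library left out, 400 kept direction and call, 15 lost the call and 4 gained it; with 1 library left out 285 kept both, 77 lost the call, 2 gained it and 2 turned direction. Depth limits members below about 1 CPM, whose falls rest on as few as 11 counts at 21 months.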
